A study of Mus musculus with 21 samples.

Results

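Transcripts of the mitochondrial chromosome and of its near-identical nuclear copies on chromosome 1 were examined in taste buds of the mouse tongue. The loci were all those on the mitochondrial chromosome, which hold mt-Nd1, mt-Co1, mt-Atp6, mt-Nd5 and mt-Cytb, and the chromosome 1 loci that hold the pseudogenes Gm10925, Gm10222, Gm28439, Gm28437 and Gm28661. All 10 symbols were found. They lay at 9 of 32052 loci, 5 mitochondrial and 4 on chromosome 1. These loci were chosen by position and symbol, selected on their means, variances and compatible and total fragments as already known, so those values are a description and were not tested.

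RNA came from circumvallate taste buds, groups of taste receptor cells that line the trench of a papilla on the rear tongue. Every group held adult mice of the inbred strain C57BL/6J, wild type in genotype and 20 to 24 weeks old. The labels give 21 libraries in 3 groups, 7 Hungry, 7 Satiated and 7 Ad lib, and do not state how long food was withheld. Total RNA was reverse transcribed from oligo(dT) primers, which anneal to poly(A) tails.

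Mitochondrial DNA is a small circular genome transcribed from both strands as long precursors, from which transfer RNAs are excised to free the messenger and ribosomal RNAs. Its messenger RNAs encode core subunits of respiratory complexes I, III and IV and of ATP synthase, while all other subunits come from nuclear genes. Over evolution, pieces of mitochondrial DNA have been inserted into nuclear chromosomes, where they lie as pseudogenes and, when young, differ little from their source.

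Compatible fragments are those that match a transcript of the authors' merged annotation, whether known or newly assembled. The deposited table gives, for each locus, the authors' mean over libraries of scaled fragments, once for compatible and once for total fragments. It gives no level per library, and its 3 conditions carry the same numbers throughout (0 of 32052 loci differed), so Hungry, Satiated and Ad lib could not be compared. The CV used below is the square root of the authors' variance divided by their mean. At 454, 667 and 474 loci, the variance over the squared mean matched fragments in 1 library of a set of 6, 7 and 8. That these loci had fragments in 1 library was inferred from the match, and the labels give 7 libraries in each group. The CV was therefore read as spread within sets. Which libraries form each set is not given in the sources used here. All 7 markers of taste bud cells looked at lay at detected loci, with 1089 to 37058 fragments. Trpm5 and Entpd2 lay at loci of 2 genes, so their own detection is not shown. Detected too were the epithelial keratins Krt4 with 19096, Krt13 with 17703 and Krt14 with 2637 fragments. The CV of these 3 keratins was 0.987 to 1.58. The fibroblast genes Col1a2 and Col3a1, the muscle gene Ckm and the erythrocyte gene Hba-a1 had at most 5.32 fragments. The part of surface epithelium in the mitochondrial values was not tested, and in bulk RNA fewer cells and less RNA per cell cannot be told apart.

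The sequences show how little separates the copies from their source. They are given 5′ to 3′ on the coding strand from GENCODE M21 transcripts on GRCm38. The first set holds the start of mt-Atp6, which encodes a proton channel subunit of ATP synthase (mitochondrial chromosome, 7927 to 8006, plus strand), its member copy Gm10925 (chr1:24614572-24614651, minus strand) and, as a diverged copy, Gm28926 (chr1:65421724-65421803, minus strand). Capitals mark the 19 of 80 bases at which Gm28926 differs from mt-Atp6.
mt-Atp6: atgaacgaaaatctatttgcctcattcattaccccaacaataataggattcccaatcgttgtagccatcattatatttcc
Gm10925: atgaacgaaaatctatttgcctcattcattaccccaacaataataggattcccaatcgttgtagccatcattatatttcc
Gm28926: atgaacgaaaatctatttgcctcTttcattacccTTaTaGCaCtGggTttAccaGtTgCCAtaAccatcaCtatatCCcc

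The second set holds the 2 substitutions found within the aligned bases of the copies in the chromosome 1 block. They lie in mt-Nd3, which encodes a complex I subunit (mitochondrial chromosome, 9459 to 9491), against Gm28438 (chr1:24613087-24613119, minus strand), and in mt-Co1, which encodes the catalytic subunit of complex IV (6390 to 6423), against Gm29216 (chr1:24616155-24616188, minus strand). Capitals mark the differing base.
mt-Nd3: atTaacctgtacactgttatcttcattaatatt
Gm28438: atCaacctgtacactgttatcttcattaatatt
mt-Co1: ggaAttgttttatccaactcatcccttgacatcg
Gm29216: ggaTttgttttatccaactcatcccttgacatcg
Counted from 1 at the first base of the mitochondrial gene, with the mitochondrial base first, these are T3C in mt-Nd3 and A1066T in mt-Co1.

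The 5 member pseudogenes were exact copies. Gm28661 matched mt-Co2 over 681 bases, Gm10925 matched mt-Atp6 over 678, Gm28437 matched mt-Co3 over 783, Gm10222 matched mt-Nd4l over 294 and Gm28439 matched the first 876 bases of mt-Nd4. There were 0 mismatches in 3312 aligned bases. With Gm29216 and Gm28438, the 7 copies held 2 mismatches in 4140 aligned bases. In Gm29216 the first 9 bases lay outside the alignment. The copies kept the order of their genes: the mitochondrial stretch from 6390 to 11042, of 4653 bases, faced the minus strand of chr1:24611535-24616197, of 4663 bases. The only shift in spacing between neighbouring copies was 1 base, between the copies of mt-Nd3 and mt-Nd4l. No copy of mt-Nd1, mt-Nd2, mt-Nd5, mt-Nd6, mt-Cytb or either ribosomal RNA was annotated in this block.

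The 5 mitochondrial loci together had 1037975 compatible fragments, 4.74% of all compatible fragments, and the 4 copy loci had 300338, or 1.37%. The ratio of mitochondrial to copy fragments was 3.46 by compatible and 3.27 by total fragments. The mitochondrial loci cover 15415 exon bases and the copy loci 3308. For the mitochondrial locus from mt-Co1 to mt-Te alone, which holds the source genes of these copies, the ratio by compatible fragments was 2.01. Of the 11 loci with the most compatible fragments, 7 were members: 3 mitochondrial loci and all 4 copy loci. The cutoff of 11 is the rank of the lowest of these 7, taken after the values had been seen, so this count only describes their ranks. Since a fragment from an identical stretch fits both places, the split between mitochondrial gene and copy is uncertain at every one of these copies. How fragments with several matches were assigned is not given in the sources used here, and their part in the copies' level was not tested.

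The 3 abundant mitochondrial loci each joined several genes, and mt-Cytb was the only messenger RNA that did not share its locus with another one. The locus from mt-Co1 to mt-Te (5328 to 14139) ranked 1st of all loci, with 602776 compatible fragments and a CV of 0.157. It held 19 genes, among them those for complex IV subunits mt-Co1, mt-Co2 and mt-Co3, for ATP synthase subunits mt-Atp6 and mt-Atp8, and for complex I subunits mt-Nd3, mt-Nd4, mt-Nd4l, mt-Nd5 and mt-Nd6. Its other genes were the transfer RNA genes mt-Td, mt-Te, mt-Tg, mt-Th, mt-Tk, mt-Tl2, mt-Tr, mt-Ts1 and mt-Ts2. The genes mt-Nd6, mt-Te and mt-Ts1 are read from the opposite strand. No strand setting is stated, so fragments of the 2 strands cannot be told apart here or at any other mitochondrial locus.

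The locus from mt-Tf to mt-Tw (1 to 5016) ranked 3rd, with 240665 compatible fragments and a CV of 0.132. It held 11 genes: the ribosomal RNAs mt-Rnr1 and mt-Rnr2, the complex I subunit genes mt-Nd1 and mt-Nd2, and the transfer RNA genes mt-Tf, mt-Ti, mt-Tl1, mt-Tm, mt-Tq, mt-Tv and mt-Tw. Ribosomal and messenger RNA were thus counted together. The locus of mt-Cytb, which encodes the cytochrome b subunit of complex III, and mt-Tt (14145 to 15355) ranked 4th, with 194494 compatible fragments and a CV of 0.122.

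The last 2 mitochondrial loci hold transfer RNA genes alone, on the minus strand, and were low. The locus from mt-Ta to mt-Ty (5018 to 5326), with the genes for the alanine, asparagine, cysteine and tyrosine transfer RNAs, had 39.1 compatible and 242 total fragments. The proline transfer RNA gene mt-Tp (15356 to 15422) had 0.689 compatible and 62.2 total fragments, and was the 1 member locus under the detection minimum of 10 compatible fragments. Their compatible CV was 0.252 and 1.10. Counting error alone would give 0.160 and 1.20 at these means.

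On chromosome 1, Gm10925, the copy of mt-Atp6, had the most compatible fragments of the copy loci, 88553 (CV 0.125, rank 6). The locus shared by Gm10222 and Gm28439, copies of mt-Nd4l and mt-Nd4, had 80499.6 (CV 0.105, rank 7). Gm28437, the copy of mt-Co3, had 69677 (CV 0.127, rank 10). Gm28661, the copy of mt-Co2, had 61609 (CV 0.141, rank 11). All 4 lie on the minus strand.

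Per kb of exon the copies lay within the range of the 3 abundant mitochondrial loci. Of the 10 loci with the most compatible fragments per kb, 7 were members, where 10 is again the rank of the lowest of these 7. The mt-Cytb locus had 160606 fragments per kb, the mt-Co1 to mt-Te locus 68404 and the mt-Tf to mt-Tw locus 47979. Among copies, Gm10925 had 130609, Gm28661 had 90469, Gm28437 had 88987, and the Gm10222 and Gm28439 locus had 69039 fragments per kb. The locus that holds the source genes of all 4 copy loci, mt-Co1 to mt-Te, had 0.753 times the copies' pooled level per kb of 90792. It spans 8812 exon bases against 3308 in the copy loci, and includes genes without a member copy, such as mt-Nd5 and mt-Nd6. The level of the copied stretches alone is not given, so the ratio does not compare copies with their sources. The highest copy was 1.89 times the lowest. By the authors' SD of 16337 and 7225 fragments per kb, Gm10925 and the Gm10222 and Gm28439 locus lay further apart than their spread. Gm28661 and Gm28437 differed by less than their SDs of 12753 and 11336.

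**Figure D1:**
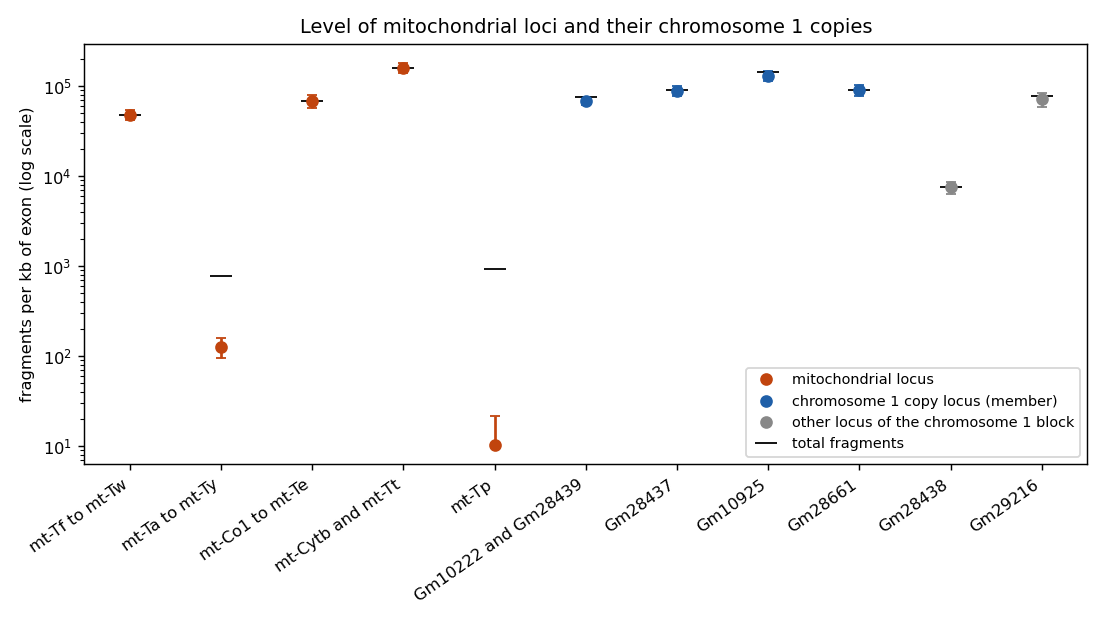
Compatible fragments per kb of exon (log scale) at the 5 mitochondrial loci, the 4 copy loci and the other 2 loci of the chromosome 1 block; points are the authors' means, bars their SD (for mt-Tp the upper bar alone, since its SD exceeds its mean) and black dashes total fragments per kb. The copies, at 69039 to 130609, lie between the mt-Tf to mt-Tw locus at 47979 and the mt-Cytb locus at 160606, while Gm28438 lies at 7478.

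The other 2 loci of the block were outside the rule, and each had 1 mismatch to its source over the aligned bases. Gm29216, the copy of a part of mt-Co1, had 34974 compatible fragments (CV 0.172), or 71086 per kb, in the range of the members. Gm28438, the copy of mt-Nd3, had 2580.0 fragments (CV 0.145), or 7478 per kb. The members' pooled level per kb was 12.1 times that of Gm28438. Gm28438 and Gm29216 were 99.7% and 99.8% identical to their genes over the aligned bases, so copies of nearly equal identity stood far apart in level.

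Across the nuclear genome, 53 pseudogene copies of mitochondrial genes with at least 100 aligned bases were found on 16 chromosomes, and 29 of them lay at a locus of the table. Levels are given for copies that were the only gene of their locus. The 3 such copies at 100% identity, Gm28437, Gm10925 and Gm28661, had 88987 to 130609 compatible fragments per kb. The 2 copies from 99% to under 100%, Gm28438 and Gm29216, had 7478 and 71086. The 4 copies from 90% to under 99% had 1.38 to 278 fragments per kb, and the 6 below 90% had at most 1.16, with 5 of them listed at 0. The longest run of bases identical to the mitochondrial gene was 678 to 783 in the first group, 342 and 479 in the second, 39 to 95 in the third and 12 to 34 in the last. The copies share the sequencing libraries, and those of the chromosome 1 block also share their chromosome and region, so this order is a description of these loci.

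**Figure D2:**
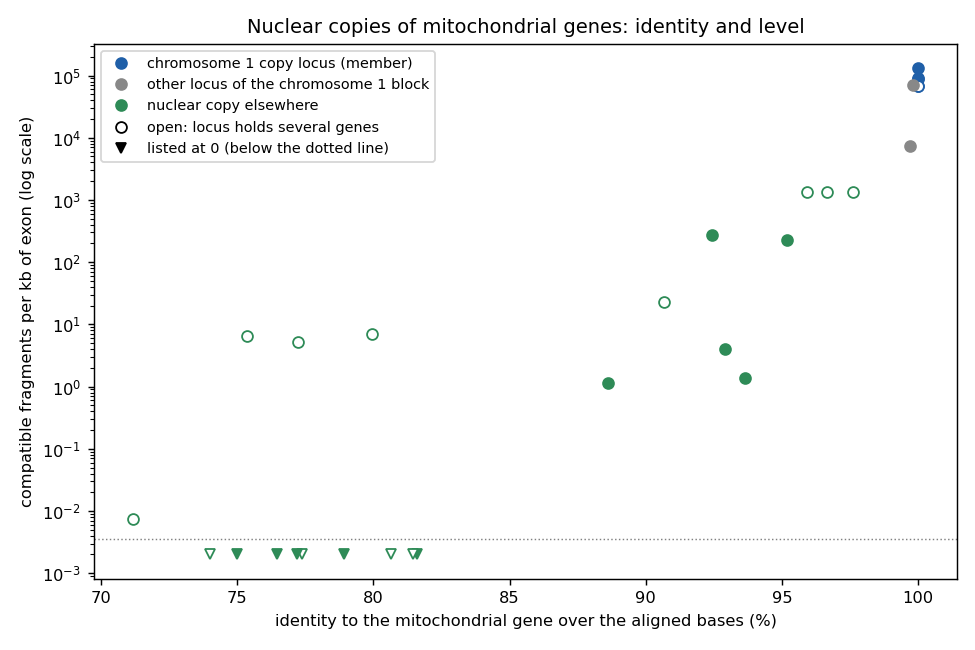
Compatible fragments per kb of exon (log scale) against identity to the mitochondrial gene (%), for 29 nuclear copies that lie at a locus of the table; filled points are loci with 1 gene, open points loci with several, and triangles below the dotted line are listed at 0. Member copies at 100% identity reach 130609, while single-gene copies below 90% reach 1.16.

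Compatible and total fragments differed between the kinds, and so did the transcripts they were matched to. The merged annotation held 1 to 3 assembled transcripts at each mitochondrial locus and 0 at each copy locus. The part of this in the compatible share was not tested. Of their own total fragments, the 5 mitochondrial loci had 99.8% compatible and the 4 copy loci 94.3%, against a median of 95.0% over 13467 detected loci (quartiles 85.5% and 98.1%) and of 99.1% over the 286 loci with at least 10000 fragments. Among mitochondrial loci the share was 99.98% for mt-Tf to mt-Tw, 99.96% for mt-Cytb and mt-Tt and 99.8% for mt-Co1 to mt-Te. It was 16.2% for mt-Ta to mt-Ty and 1.11% for mt-Tp. Most fragments at the loci of transfer RNA genes alone were thus not compatible with the transcripts of the merged annotation.

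Among copies the share split in pairs. Gm28661 had 98.9% and Gm28437 had 97.8%, with 658.5 and 1569 fragments in total that were not compatible. Gm10925 and the Gm10222 and Gm28439 locus each had 91.5%, with 8269 and 7523 such fragments. Adding these fragments raised the authors' variance 1.46-fold at Gm10925 and 1.48-fold at Gm10222 and Gm28439, but 1.03-fold at Gm28661 and 1.09-fold at Gm28437. Outside the rule, Gm29216 had 91.9% and Gm28438 had 98.8%.

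**Figure D3:**
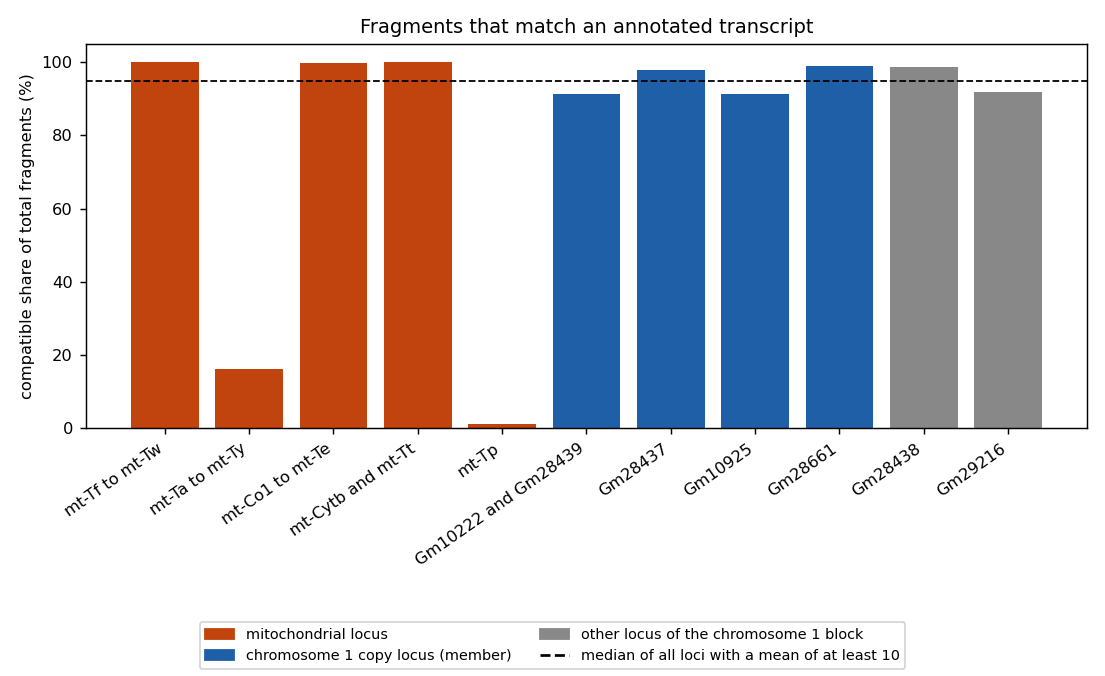
Compatible fragments as a percentage of total fragments (bars from 0) at the 5 mitochondrial loci, the 4 copy loci and the other 2 loci of the chromosome 1 block, with the median of all detected loci (95.0%) as a dashed line. The 2 loci that hold only transfer RNA genes stand at 16.2% and 1.11%, and Gm10925 and the Gm10222 and Gm28439 locus at 91.5%.

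The CV between libraries was 0.122 to 0.157 at the 3 abundant mitochondrial loci and 0.105 to 0.141 at the copy loci, against a median of 0.231 over detected loci and of 0.116 over the 286 loci with at least 10000 fragments. Of those 286 loci, 77.6% had a lower CV than the mt-Co1 to mt-Te locus, 65.7% a lower one than mt-Tf to mt-Tw and 55.2% a lower one than mt-Cytb and mt-Tt. For the copies the share ran from 38.1% at Gm10222 and Gm28439 to 68.9% at Gm28661. These members thus sat between the lower-middle and the upper part of the CVs of the 286 loci. Over the 51 loci with at least 30000 fragments, nearer to their own level, the median CV was 0.127 (quartiles 0.0954 and 0.177). All of these members lay between those quartiles.

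The authors' fitted variance is the variance their model assigns to a locus of that level. Of the 8 detected member loci, 0 had a variance above it. The share was 26.1% of the 13467 detected loci and 18.5% of the 286 abundant loci. It was 13.7% of the 51 loci with at least 30000 fragments. All detected members but mt-Ta to mt-Ty are among these 51. On the log2 scale the ratio of variance to fitted variance was -3.91 for mt-Co1 to mt-Te, -3.05 for mt-Ta to mt-Ty, -3.04 for mt-Tf to mt-Tw, -2.98 for mt-Cytb and mt-Tt and -1.49 for mt-Tp. It was -2.33 for Gm10222 and Gm28439, -1.92 for Gm10925, -1.62 for Gm28437 and -1.22 for Gm28661. The mitochondrial loci that were abundant lay further below than any copy.

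The fitted value itself differed between the 2 kinds. The fitted CV was 0.609 at mt-Co1 to mt-Te, 0.380 at mt-Tf to mt-Tw and 0.343 at mt-Cytb and mt-Tt, and 0.215 to 0.243 at the copies, against a median of 0.163 over the 286 abundant loci. The measured CVs of the abundant loci of the 2 kinds overlapped. With the running median of the variance over the 100 nearest loci in place of the fitted variance, 7 of the 8 detected members lay above it, against 50.1% of all detected loci and 78.4% of the 51 loci with at least 30000 fragments. By total fragments 7 also lay above, against 50.3% of all detected loci and 76.5% of the 51 loci. The 100 neighbours had a median mean of only 28447 to 30264 fragments for the 7 abundant members. With a running median of the squared CV, an alternative added after the values had been seen, 4 of 8 lay above, against 50.1% of all detected loci. They stood at log2 ratios of 0.64 for mt-Co1 to mt-Te, 0.30 for Gm28661, 0.14 for mt-Tf to mt-Tw and 0.03 for Gm28437.

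**Figure D4:**
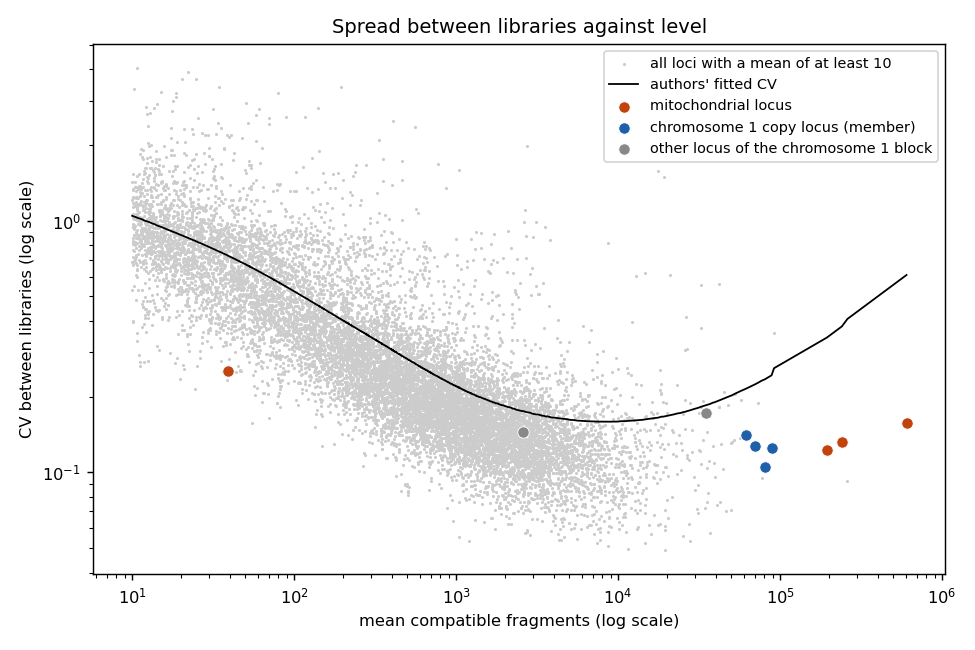
CV between libraries against mean compatible fragments, both on log scales, for 13467 detected loci (small grey points), the authors' fitted CV (black line), the 8 detected member loci (orange and blue) and the other 2 loci of the block (large grey points). The fitted line climbs at the highest levels to 0.609 at mt-Co1 to mt-Te, whose measured CV was 0.157.

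Nuclear genes whose products work with the mitochondrial transcripts lay at detected loci throughout. Of 185 symbols in 7 lists, 182 were found in the annotation and all 182 lay at a detected locus. Of all 32052 loci, 13467 were detected. Where a locus held other genes, its fragments may be theirs, so detection of the listed gene is not shown there. At the 100 loci that hold 1 listed gene alone, the median CV was 0.175, against 0.253 over all 8696 detected single-gene loci. The CV falls with level over most of the range, and the median level was 810.1 fragments at the partner loci and 394 at all single-gene loci. The part of level in the lower CV was not tested. A variance above the fitted one was seen at 10 of these 100 loci, against 26.1% of all detected loci.

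For nuclear subunits of the respiratory chain and ATP synthase, the median CV was 0.164 for 23 complex I loci, 0.154 for 6 complex III loci, 0.174 for 7 complex IV loci and 0.168 for 8 ATP synthase loci. Atp5a1, the alpha subunit of ATP synthase, had 18094 fragments with a CV of 0.0622, and at 5772 fragments per kb was the highest of these loci per length. The complex I genes Ndufa9 and Ndufb9 had 1837 and 1782 fragments (CV 0.0898 and 0.164). Among the most variable of their list, Ndufs7 and Ndufs6 had CVs of 0.204 and 0.194. In complex III, Uqcrfs1, which encodes the Rieske iron-sulfur protein, had 4681 fragments (CV 0.0999) and the core protein gene Uqcrc1 had 4131 (CV 0.103). The small subunit genes Uqcr11 and Uqcrq both had a CV of 0.209. In complex IV, Ndufa4 had 2698 fragments (CV 0.154) and Cox8a had 2620.07 (CV 0.174), while Cox5b and Cox6a1 had CVs of 0.192 and 0.182. The ATP synthase c-subunit gene Atp5g3 had 3904 fragments (CV 0.128), and Atp5j2 and Atp5k had CVs of 0.222 and 0.220. Per kb, even Atp5a1 stood far below the 47979 to 160606 fragments of the abundant mitochondrial loci.

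Genes that act on mitochondrial DNA and RNA had higher median CVs, 0.264 at 6 loci for mitochondrial DNA transcription and replication and 0.214 at 9 loci for RNA processing and stability. Their median levels were 424 and 821 fragments. Tfam, which packages mitochondrial DNA and starts its transcription, had 1652 fragments (CV 0.108). Ssbp1, the single-stranded DNA binding protein, had 1063 (CV 0.236), the elongation factor gene Tefm had a CV of 0.295 and the termination factor gene Mterf1a one of 0.375. Grsf1, an RNA granule protein, had 4653 fragments (CV 0.0900), and Lrpprc, which stabilises mitochondrial messenger RNAs, had 2269.85 (CV 0.214). Fastkd1 and Fastkd3, of a family of mitochondrial RNA binding proteins, had CVs of 0.444 and 0.278. Of the 9 RNA processing loci, 5 lay above the fitted variance, at Lrpprc, Pnpt1, Fastkd1, Fastkd2 and Ptcd2, against 26.1% of all detected loci. No difference between lists was tested.

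Proteins of the mitochondrial ribosome, which translates the mitochondrial messenger RNAs, had a median CV of 0.170 at 41 loci. Mrpl50 and Mrpl9 were the most abundant, with 2000.23 and 1363 fragments (CV 0.165 and 0.146), and Mrps35 and Mrpl23 the most variable, with CVs of 0.295 and 0.252. Mrps35 was the 1 locus of the 41 above the fitted variance, against 26.1% of all detected loci.

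**Figure D5:**
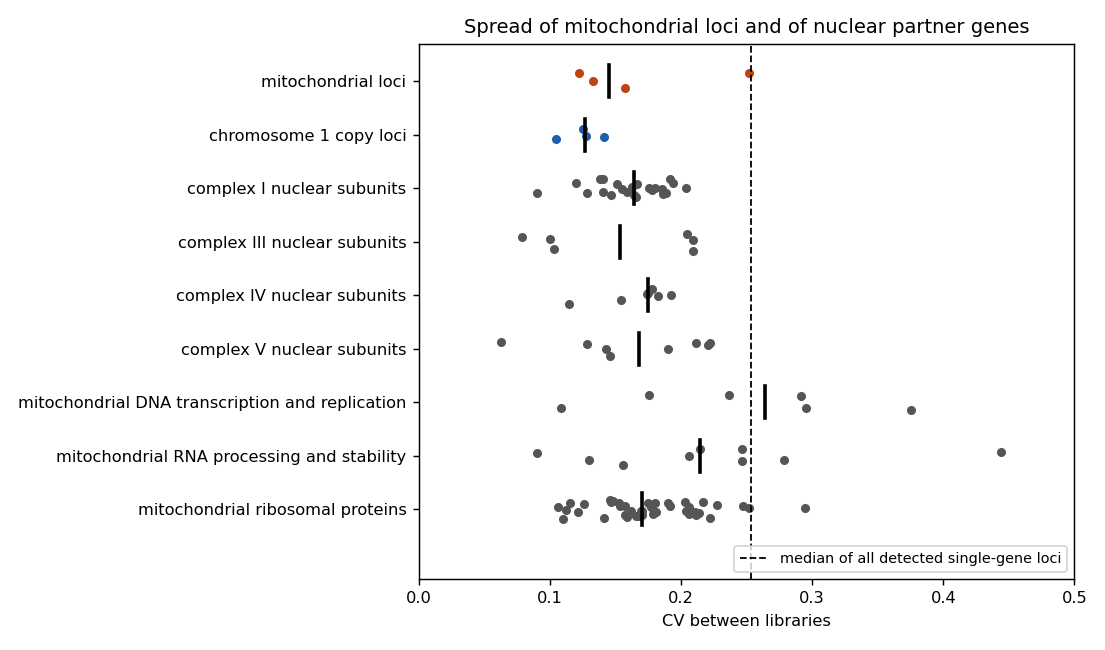
CV between libraries at detected mitochondrial loci, copy loci and the single-gene loci of 7 lists of nuclear partner genes; each point is a locus, black bars are medians and the dashed line is the median of all detected single-gene loci (0.253). Medians of the lists for complexes I, III, IV and V lie between 0.154 and 0.174, and that for mitochondrial DNA transcription and replication at 0.264.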

How the data were processed

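The deposited files are an annotation of merged transcripts and a table of loci in the column layout of Cuffdiff's variance model, per the file headers. The authors' values in it are means, variances and fitted variances of fragments scaled by a size factor and not divided by length. They pool all libraries, and the variances were read as spread within sets of libraries. Per the submitters' processing notes, the build was GRCm38.p4 and the tools, with no versions, were Trimmomatic, FastQC, TopHat, Bowtie2, Cufflinks and Cuffdiff. The sources used here do not give their settings or the reads per library, so depth per library is unknown.

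Loci were named by overlap with the merged annotation. Bounds of the chromosome 1 copy loci were identical to the outer ends of their genes in GENCODE M21 on GRCm38. The mitochondrial member genes lie within loci of several genes, so locus bounds do not check their coordinates. Levels per kb divide by the union of a locus's exons. A locus counted as detected from 10 compatible fragments on average. Mitochondrial genes were compared with annotated pseudogenes by BLAST 2.17.0 (word size 11, E-value 1e-10, at least 100 aligned bases). The remaining steps ran in pandas 2.3.3 and numpy 2.4.6 under Python 3.11.15, with plots by matplotlib 3.10.9, and were tested on simulated data. Loci were matched to a value of the variance within a relative tolerance of 0.0001.

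Members and gene lists were chosen with earlier results of these data known. Beside the members, the genes named are those sharing their loci and, per list, the 2 most abundant and the 2 with the highest CV at single-gene loci. Some loci above the fitted variance and some nuclear copies were named beyond that rule, after their values had been seen. The planned contrasts between Hungry, Satiated and Ad lib could not be run, so no p-value is given. The 3 listed symbols not found, and the marker Acta1, were not analysed here.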

Additional observations from a re-analysis of the deposited data

How the results depend on the processing

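The share of compatible fragments at mitochondrial loci, 4.74%, was 4.37% by total fragments. It was 8.17% with detected single-gene and mitochondrial loci as the denominator, and 6.29% with the 6 loci of the chromosome 1 block added. The median compatible share of the copies lay -0.35 percentage points from that of loci with a mean of at least 10. This difference was 4.75 points against loci with no minimum above 0, which reversed it, and -1.51 points against loci with at least 100. Against 0 members above the fitted variance, 7 of 8 lay above a running median of the variance, 7 did so by total fragments and 4 lay above a running median of the squared CV. Of all detected loci, 50.1%, 50.3% and 50.1% lay above these medians, so the counts are not on the scale of the 26.1% above the fitted variance. Of the 51 loci with at least 30000 fragments, 78.4%, 76.5% and 51.0% lay above them. The share of loci above the fitted variance was 22.3% at a minimum of 100 fragments. The median CV of nuclear partner loci was 0.159 with loci of several genes included. Adding the other 2 loci of the block brought 0 further loci above the fitted variance, and 182 partner genes lay at detected loci at minimums of 1 and 50. The squared CV and the alternatives that add loci of the block were chosen after seeing the data. The causes were not tested. No paired analysis was possible because the deposited values pool all libraries, and for the same reason no library could be left out.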

Other observations

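Some nuclear copies of mitochondrial genes outside the chromosome 1 block had larger CVs than the 0.105 to 0.141 of the member copies. On chromosome 4, Gm11407, a 92.4% identical copy of mt-Nd5, had 294 compatible fragments with a CV of 0.841. On chromosome 13, Gm4076, a 95.2% identical copy of mt-Nd5, had 117 fragments with a CV of 0.826. Both lay above the authors' fitted variance, by log2 ratios of 2.56 and 1.48. The neighbours of Gm11407 were low: Gm11410, a copy of mt-Cytb, had 4.58 compatible fragments, and Gm11408, a copy of mt-Nd6, had 0.715 compatible but 62.6 total fragments.

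On chromosome 2, the copies Gm13340 of mt-Co1, Gm13339 of mt-Nd2 and Gm13341 of mt-Co2 shared a locus of 5 genes with Myo3a. It had 14569 compatible fragments, or 1339 per kb, with a CV of 0.619 and a log2 ratio to the fitted variance of 3.87. The table does not divide these fragments between the 5 genes. These loci were chosen after their values had been seen, and no difference from the members was tested.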
